A study of Drosophila melanogaster with 24 samples.

Results

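Innexins are the proteins from which insects build gap junctions, the channels that join the cytoplasm of neighbouring cells and carry electrical synapses between neurons. Subunits of 1 or more kinds assemble into a channel in each of the facing membranes, so the innexins a cell expresses bear on which partners it can couple to. In the fly brain they serve electrical coupling among neurons and coupling within glial layers, and Inx2 has been linked in flies to the period of activity rhythms through the ventral lateral clock neurons, the cells that release the neuropeptide PDF.

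The genes described here are those that the array's gene annotation names ogre, Inx2, Inx3, Inx5, Inx6, Inx7 or shakB. Of these 7 genes, 6 had a probe set named for them alone, 1 probe set each, out of 11982 genes with such a probe set. shakB, which encodes the innexin of the giant fibre's electrical synapses, had no probe set named for it in the annotation used and was not analysed here. The reference annotation (Release 6 plus ISO1 MT) holds 8 innexin genes in all. The eighth is zpg, the innexin of the germ line, which read between 2.25 and 4.96 on the 24 arrays and served only as context.

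The 6 measured genes were ogre (probe set 1628323_s_at), Inx2 (1640798_a_at), Inx3 (1628363_at), Inx5 (1630680_at), Inx6 (1627291_at) and Inx7 (1638225_a_at). Of these, 5 lie on chromosome X and Inx3 lies on 3R. Along X, ogre, bou, Inx7 and Inx2 follow each other in that order, so that Inx7 and Inx2 are direct neighbours. The pairing of probe set and gene is that of the platform annotation and was not checked against probe sequences. It runs through gene IDs, and the reference annotation gives the same IDs, 33027 for Inx7 and 31645 for Inx6. These 2 numbers are out of order with position on X, since 31645 adjoins the 31646 of Inx2, next to which Inx7 lies. Whether the probe sets of Inx7 and Inx6 are exchanged was not tested, so every statement on either gene is on the probe set that carries its name.

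The 24 arrays profiled adult Drosophila brain neurons that carried GFP under cell-type drivers, were freed by protease and were picked by hand. Small PDF neurons of yw flies were taken at ZT0 and ZT12 (2 arrays each). Large PDF neurons of per01 flies, which carry a loss-of-function allele of the clock gene period, were taken at ZT0 and ZT12 (2 arrays each), from males only. Large PDF neurons of yw flies were taken at 4 times, with 3 arrays each for ZT0 and ZT12 and 2 each for ZT6 and ZT18. ELAV neurons of yw flies, which stand for neurons in general, had 3 arrays each for ZT0 and ZT12. The yw samples came from males and females. ZT is zeitgeber time in hours, with lights on at ZT0 by convention, in a cycle of 12 h light and 12 h dark that all flies shared. A sample drew on about 50 brains and on between 0.1 and 0.4 ng of RNA, and the drivers were not named in the sources used here. Labels call the replicates biological.

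Values are log2 GCRMA values, and a probe set entered the tests if it reached log2 5 on at least 2 arrays, as 8318 did. Pdf itself read 15.77 to 15.87 on small, 16.17 to 16.2 on per01 large, 15.5 to 15.99 on large and 2.76 to 5.34 on ELAV arrays, and elav was at 11.27 or more on every array. Of the markers of transmitter neurons, on ELAV arrays Vmat read 14.58 to 14.83, Gad1 13.28 to 14.41 and ple 8.21 to 11.34. There ChAT read 8.33 to 10.24, VGAT 6.32 to 7.99, VAChT 4.28 to 8.27 and VGlut 2.47 to 3.42. How evenly the ELAV samples cover neuron types was not tested. The mutated gene per read 8.11 to 9.64 on per01 arrays, against 7.77 to 12.69 on wild-type large PDF arrays of the same times. This does not check the genotype, because a mutated gene can still be transcribed. The 4 per01 arrays stood apart from the other 20, with array medians of 2.57 to 2.6, against 3.14 to 3.44 on wild-type arrays. Another pair of arrays stood apart by markers of other cells. On the third ELAV array at ZT12 the 8 haemocyte markers summed to 41.13 (30.58 to 41.13 over ELAV arrays), and on the second large PDF array at ZT0 to 56.59 (34.86 to 56.59 over large arrays). For Inx2, Inx3 and ogre the kind comparisons are given with and without these arrays, as are the ELAV time differences of Inx2 and Inx3. For Inx7, ranges over alternative analyses are given, which include fits without them. Marker and gene list differences are on all arrays.

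Of the 6 measured innexins, Inx7, Inx2 and Inx3 passed the filter. Inx7 reached log2 5 on 20 of the 24 arrays and Inx2 on 10. Inx3 did so on 2 arrays, the same pair that stood apart by haemocyte markers. ogre reached it on 1 array, and Inx5 and Inx6 on none.

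**Figure D1:**
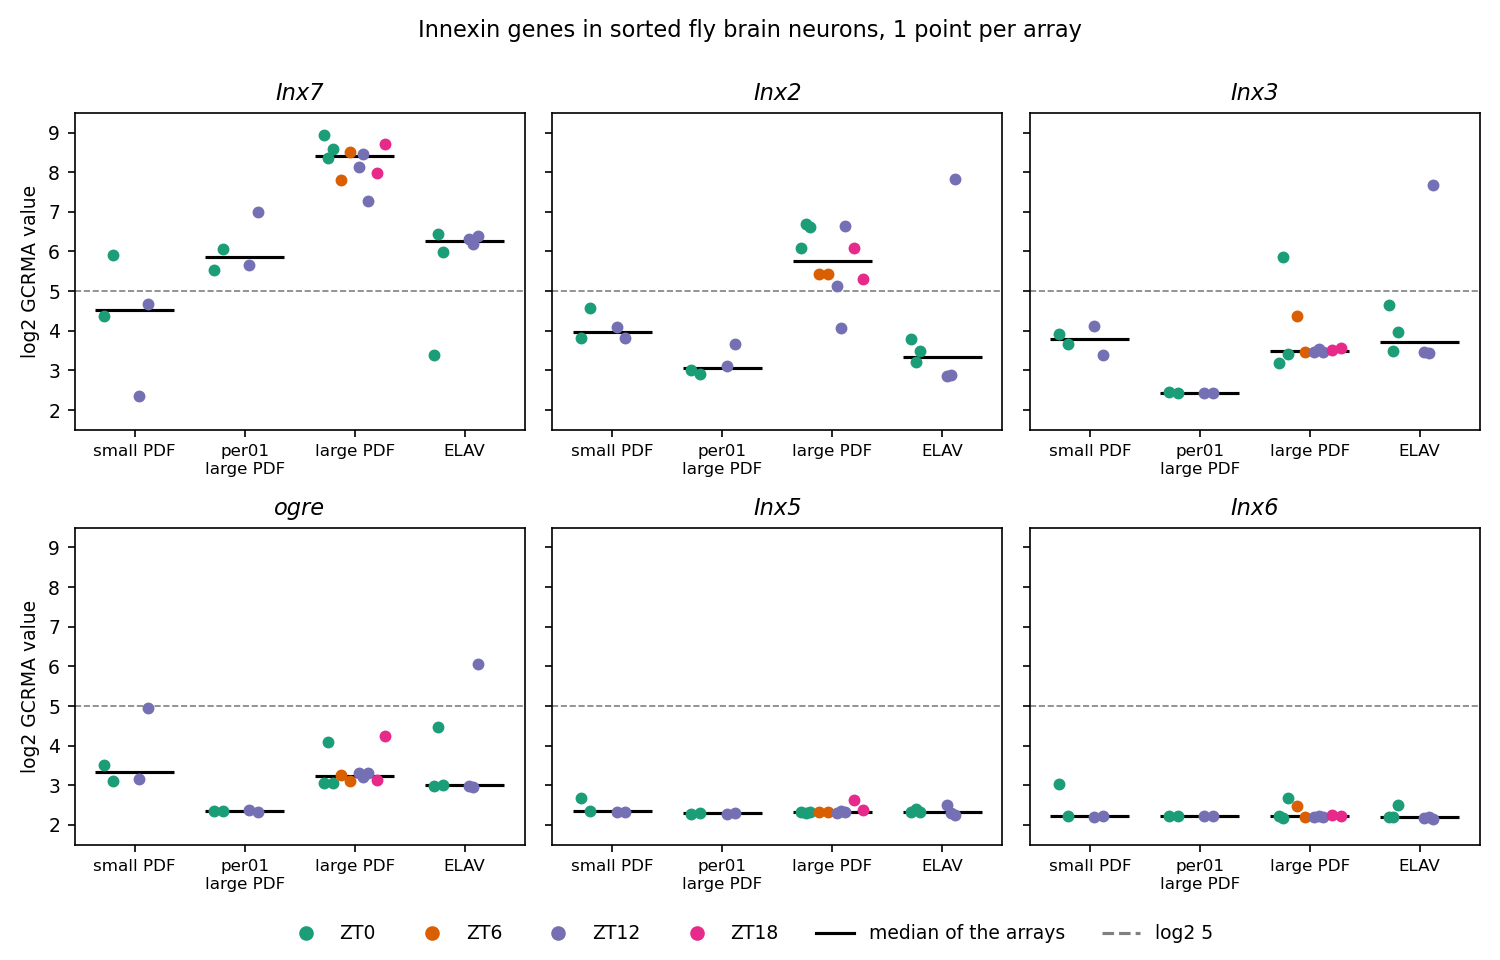
Log2 GCRMA value (y axis) of each of the 6 measured innexin genes on the 24 arrays, 1 point per array, by cell kind and genotype (x axis); colours give the zeitgeber time, bars the median and the dashed line log2 5. Inx7 lies between 7.29 and 8.93 on all 10 large PDF arrays, above every other array, while Inx5 and Inx6 stay between 2.16 and 3.04 throughout.

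The probe set named Inx7, within the limit on its name given above, was the innexin probe set that read highest in large PDF neurons relative to the other kinds. In flies Inx7 is known for heterotypic junctions with Inx6 between large neurons of the mushroom body memory circuit. In small PDF neurons Inx7 read 4.36 and 5.90 at ZT0 and 2.36 and 4.67 at ZT12. In large PDF neurons it read 8.93, 8.36 and 8.58 at ZT0, 7.81 and 8.52 at ZT6, 8.14, 8.46 and 7.29 at ZT12, and 7.97 and 8.71 at ZT18. In ELAV neurons it read 3.40, 6.45 and 5.98 at ZT0 and 6.32, 6.20 and 6.38 at ZT12. All 10 large PDF values exceeded every value of the other kinds, per01 included. Small and ELAV arrays overlapped, and 1 of 4 small arrays and 5 of 6 ELAV arrays reached log2 5.

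Inx7 was higher in large PDF than in ELAV neurons. It averaged 8.29 ± 0.56 on the large PDF arrays of ZT0 and ZT12 and 5.79 ± 1.18 on ELAV arrays (SD, n = 6 each). The difference was 2.50 ± 0.49 (log2, SE; limma, adjusted p = 0.001). It ranged from 2.03 to 2.80 over 23 alternative analyses and was called in each. In that comparison limma called 24.4% of all tested probe sets, and 2 of the 3 tested innexins, Inx7 and Inx2, both higher. The arrays are of cell pools, in which fewer cells of a type and less RNA per cell cannot be told apart. Of 6 tested glial markers and 4 tested haemocyte markers none was called in this comparison by limma, with 1 glial and 2 haemocyte markers at an unadjusted p under 0.05. The glial markers summed to 58.18 to 71.47 on large PDF and to 56.18 to 67.87 on ELAV arrays.

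Inx7 was lower in small than in large PDF neurons. It averaged 4.32 ± 1.47 on small arrays (SD, n = 4), against the 8.29 of large arrays, a difference of -3.97 ± 0.55 (log2, SE; limma, adjusted p = 8.55e-05). It was the only 1 of 3 tested innexins called in this comparison, in which 17.1% of all tested probe sets were called. The Inx7 call held in all 21 alternative analyses run on it, with differences of -4.55 to -3.07. As 3 of the 4 small arrays read under log2 5, the size includes background. Of the tested glial markers nrv2 was higher and loco lower in small neurons, and of the haemocyte markers Pxn was lower (-3.56 ± 0.52). Of 6 tested transmitter markers of other neurons, Vmat (2.52 ± 0.40) and VGAT (1.33 ± 0.39) were higher in small neurons. The 7 transmitter markers summed to 27.6 to 35.49 on small, 21.89 to 30.91 on large and 58.28 to 68.49 on ELAV arrays. The part of these markers in the Inx7 difference was not tested.

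Between small PDF and ELAV neurons the Inx7 difference was -1.47 ± 0.55 (log2, SE; limma, adjusted p = 0.056), and no innexin passed the test there, with Inx7 alone at an unadjusted p under 0.05. The test called 27.6% of all probe sets in that comparison. The Inx7 difference stayed negative in all 21 alternatives, from -2.04 to -0.83, and it passed the test in 6 of them. It passed without the first ELAV array at ZT0, the one at 3.40 (-1.94, adjusted p = 0.0046), without the second small array at ZT12 (-2.04, adjusted p = 0.0163) and without the second small array at ZT0 (-1.85, adjusted p = 0.0395). Among small arrays Inx7 was highest on the second at ZT0, at 5.90, where the 14 glial markers summed to 70.05, the highest of the small arrays (59.83 to 70.05).

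Inx2 was the second innexin found in large PDF neurons. In flies it pairs with Inx3 in epithelia and with ogre in glia. On small PDF arrays Inx2 read 3.82 and 4.57 at ZT0 and 4.10 and 3.83 at ZT12. On large PDF arrays it read 6.08, 6.70 and 6.62 at ZT0, 5.44 and 5.43 at ZT6, 5.13, 4.06 and 6.65 at ZT12, and 6.10 and 5.31 at ZT18. On ELAV arrays it read 3.78, 3.22 and 3.48 at ZT0 and 2.87, 2.87 and 7.82 at ZT12. All but 1 of the 10 large PDF arrays reached log2 5. The ELAV value of 7.82 was the highest of all 24 arrays and came from the array with the raised haemocyte markers, and the other 5 ELAV arrays and all small arrays were under log2 5.

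Inx2 was higher in large PDF than in ELAV neurons, by 1.87 ± 0.64 (log2, SE; limma, adjusted p = 0.0422). It averaged 5.87 ± 1.07 on the large arrays of ZT0 and ZT12 and 4.01 ± 1.90 on ELAV arrays (SD, n = 6 each). The call was lost when any of 10 of the 12 compared arrays was left out singly, with adjusted p up to 0.118, and kept without the third ELAV array or the second large PDF array at ZT12. Inx2 passed the filter mainly through large PDF arrays, and without a filter the call was lost (adjusted p = 0.104). Without the ELAV array at 7.82, the difference was 2.69 ± 0.36 (adjusted p = 3.24e-05), and without both arrays that stood apart it was 2.63 ± 0.38 (adjusted p = 1.30e-04). With values under log2 5 raised to 5 it was 0.56 ± 0.40 (adjusted p = 0.351).

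Between small and large PDF neurons the Inx2 difference was -1.79 ± 0.72 (log2, SE; limma, adjusted p = 0.0971), with means of 4.08 ± 0.35 on small arrays (SD, n = 4) and 5.87 on large arrays. As all small values were under log2 5, this difference includes background. With values under 5 raised to 5 on both sides it corresponds to 2.04-fold, and to 1.70-fold to 2.26-fold with any 1 array left out. The large PDF value of 4.06 is raised too, so this is not a strict lower bound. The difference passed the test without the arrays that stood apart (-1.74 ± 0.40, adjusted p = 0.0084). Of these, the ELAV array is outside this comparison and enters only through the shared estimate of spread. With any 1 compared array left out, the limma test made no call (adjusted p of at least 0.0582). Between small PDF and ELAV neurons the Inx2 difference was 0.07 ± 0.72 (adjusted p = 0.958), and 0.90 ± 0.40 without those arrays (adjusted p = 0.117).

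Inx3, which joins Inx2 in epithelial channels, and ogre, which is needed for the growth of the optic lobes and acts in glia, were near background in most neurons. Small PDF arrays read 3.93 and 3.66 for Inx3 at ZT0 and 4.13 and 3.38 at ZT12. Large PDF arrays read 3.20, 5.85 and 3.42 at ZT0, 4.37 and 3.48 at ZT6, 3.46, 3.53 and 3.47 at ZT12, and 3.50 and 3.55 at ZT18. ELAV arrays read 4.65, 3.49 and 3.96 at ZT0 and 3.47, 3.44 and 7.67 at ZT12.

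The only Inx3 values at log2 5 or more were thus 5.85, on the second large PDF array at ZT0, and 7.67, on the third ELAV array at ZT12. No kind comparison of Inx3 passed the limma test: the difference was -0.62 ± 0.59 for large PDF against ELAV (adjusted p = 0.485), -0.67 ± 0.66 for small PDF against ELAV (adjusted p = 0.4997) and -0.05 ± 0.66 for small against large PDF (adjusted p = 0.973). The sizes rest on the arrays that stood apart. Without both, the differences were -0.34 ± 0.26 (adjusted p = 0.382), 0.03 ± 0.27 (adjusted p = 0.952) and 0.37 ± 0.27 (adjusted p = 0.385) in the same order. Without the ELAV array at 7.67 alone, that for large PDF against ELAV was 0.08 ± 0.39 (adjusted p = 0.902).

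ogre read 3.10 to 4.96 on small, 3.05 to 4.25 on large and 2.96 to 6.06 on ELAV arrays. Its 1 value at log2 5 or more, 6.06, was again on the third ELAV array at ZT12. Over all 18769 probe sets without a filter, its limma difference for large PDF against ELAV was -0.40 ± 0.49 (adjusted p = 0.690), and -0.06 ± 0.35 without both arrays that stood apart (adjusted p = 0.956).

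The third ELAV array at ZT12 was thus the highest of the 24 arrays for ogre, Inx2 and Inx3 together, while its Inx7 value was 6.38, near the 6.32 and 6.20 of its replicates. On that array the haemocyte and basement membrane markers Ppn, Col4a1 and vkg read 8.09, 6.35 and 5.93, whereas Hml, He and NimC1, which define haemocytes, read 2.49, 2.52 and 2.48. Among glial markers loco read 8.91, moody 4.76 and repo, the marker that defines glia, 3.30. The 14 glial markers summed to 67.87 there, the highest of the ELAV arrays (56.18 to 67.87). On the second large PDF array at ZT0, where Inx3 read 5.85, Ppn read 10.3, Col4a1 10.37, vkg 8.66, Hml 6.73 and Gs2, a glial enzyme, 9.53. He read 2.61, NimC1 2.55 and repo 3.12 there, and the glial markers summed to 71.47 (58.18 to 71.47 over large arrays). The part of other cells in the innexin values of these arrays was not tested. Of these markers drpr, loco and Pxn reached log2 5 on all 24 arrays.

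**Figure D2:**
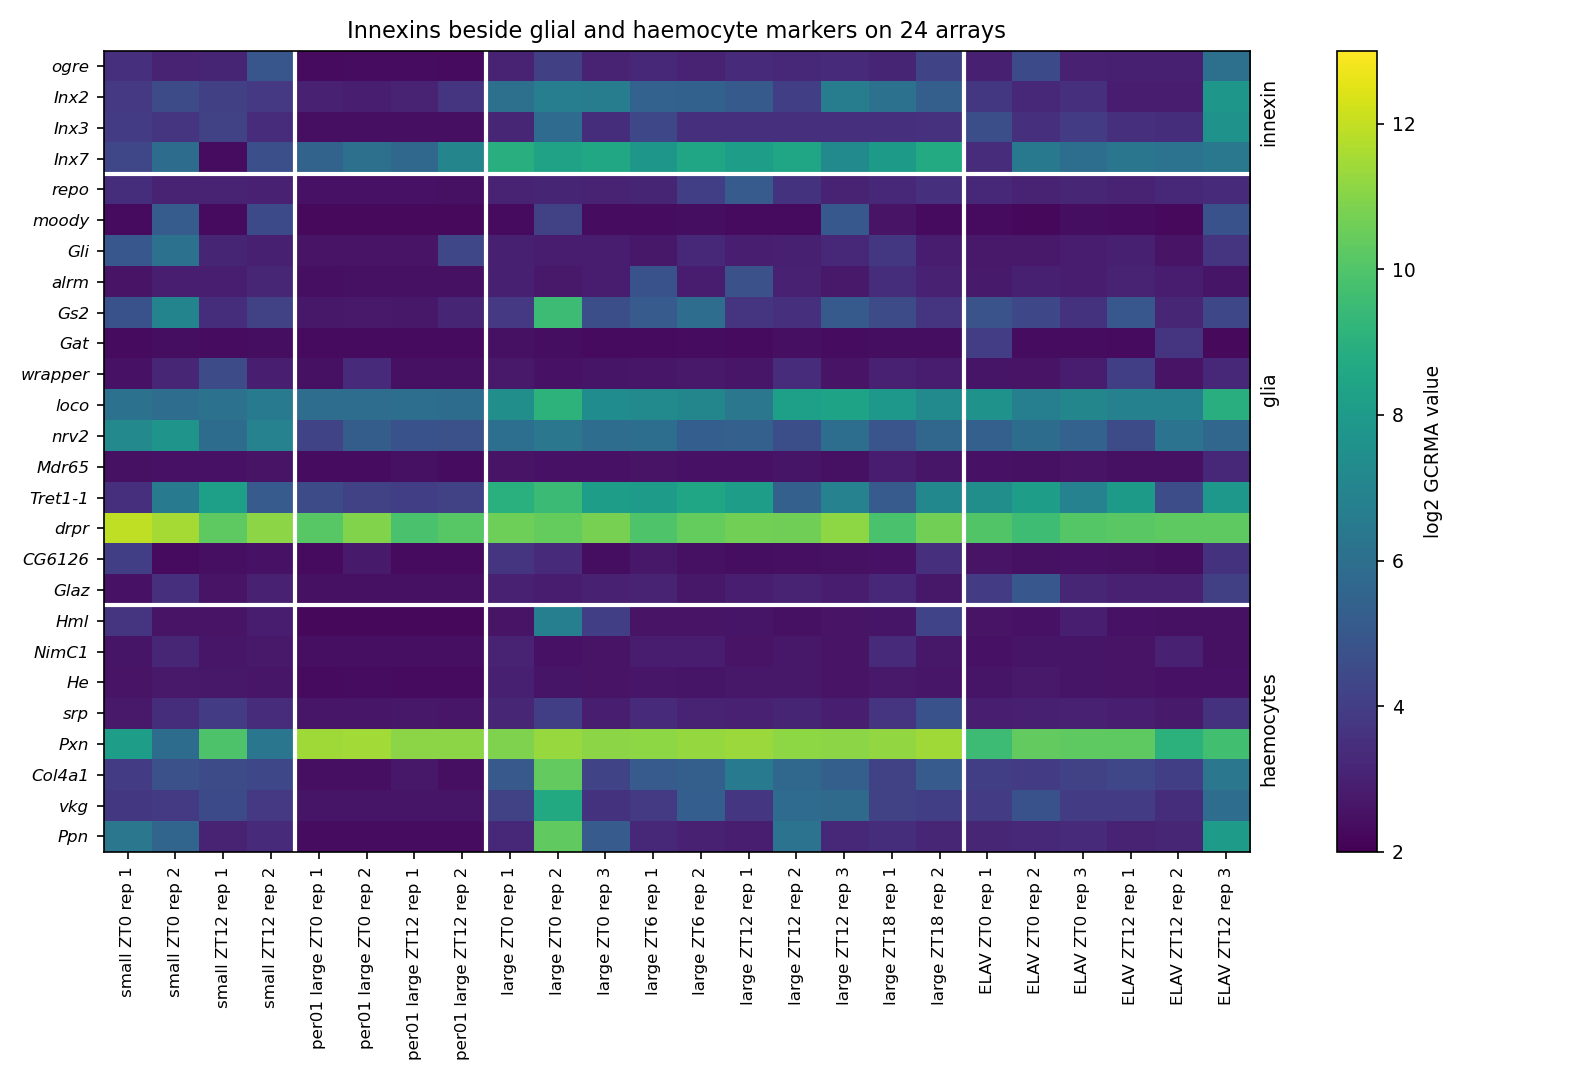
Log2 GCRMA values (colour) of ogre, Inx2, Inx3 and Inx7 above 14 glial and 8 haemocyte markers (rows) on the 24 arrays (columns, grouped as small PDF, per01 large PDF, large PDF and ELAV). Ppn, Col4a1 and vkg are bright on the same ELAV array (ZT12, replicate 3) and large PDF array (ZT0, replicate 2) on which Inx3 reaches 7.67 and 5.85, while repo is at most 5.14 everywhere.

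Inx5 and Inx6, the partner of Inx7 in the mushroom body circuit, were not measurable above background in these cells. Inx5 read 2.26 to 2.67 and Inx6 2.16 to 3.04 over all 24 arrays. Without a filter neither passed the limma test in any comparison of kinds or genotypes, with differences of at most 0.18 log2 units. The probe set named Inx6 thus gave no signal on the arrays on which the one named Inx7 was high, and this contrast rests on the names of both, whose gene IDs are out of order as given above.

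In per01 flies, large PDF neurons read lower for both innexins found in their wild-type counterparts. Inx7 read 5.52 and 6.05 at ZT0 and 5.67 and 6.99 at ZT12 in per01, below all 10 wild-type large PDF arrays (7.29 to 8.93). Inx2 read 3.02 and 2.92 at ZT0 and 3.10 and 3.66 at ZT12 in per01, below all 10 wild-type arrays (4.06 to 6.70). Inx3 read 2.44 to 2.46 and ogre 2.34 to 2.36 on the 4 per01 arrays, at the low end of the scale.

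The Inx7 difference, per01 minus wild type, was -2.24 ± 0.55 (log2, SE; limma, adjusted p = 0.0059), and the Inx2 difference was -2.70 ± 0.72 (adjusted p = 0.0096). All per01 values of Inx2 were under log2 5, so its fold depends on the floor. With values under log2 5 raised to 5 on both sides, Inx2 was 2.04-fold lower in per01 on the deposited scale. With any 1 array left out it was 1.70-fold to 2.26-fold lower. This size depends only on the large PDF arrays, and it is not a strict lower bound, because the large PDF value of 4.06 was raised too. The Inx3 difference was -1.38 ± 0.66 (adjusted p = 0.118), and -0.96 ± 0.27 without both arrays that stood apart (adjusted p = 0.0162). Without the large PDF array alone it was also -0.96, but was not called (limma, adjusted p = 0.255). The ELAV array is outside this comparison and enters only through the shared estimate of spread. On the compared arrays left, no Inx3 value reached log2 5, so both latter differences are between background values, which lie lower as a whole in per01. Thus 2 of the 3 tested innexins were called, where 32.0% of all tested probe sets were.

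That share was lopsided, with 77 probe sets called higher and 2582 called lower in per01, and a median difference over all tested probe sets of -0.69. Relative to that shift, neither innexin passed. With all arrays brought to 1 distribution the Inx7 difference was -1.41 ± 0.54 (adjusted p = 0.127) and the Inx2 difference -1.49 ± 0.71 (adjusted p = 0.227), and the split of all calls became 286 higher and 325 lower. On that scale Inx7 read 6.44 to 7.47 on per01 arrays and 7.19 to 8.83 on wild-type large PDF arrays, so that the groups overlapped. With each array centred on its median instead, the adjusted p was 0.110 for Inx7 and 0.0995 for Inx2, with 442 probe sets called higher and 406 lower. Both differences kept their sign under each of these scalings.

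Sex and genotype cannot be told apart here, since per01 samples were of males and wild-type samples of both sexes, and Inx7 and Inx2 both lie on X. A difference in array processing cannot be told apart from them either. The per01 arrays had lower medians, and which arrays were processed jointly is not stated. Markers of other cells were lower on per01 arrays too: 4 of 6 tested glial markers and 2 of 4 tested haemocyte markers were called lower in per01 on the deposited scale, where 32.0% of all tested probe sets were called and nearly all of those were lower. After requantiling 0 of 6 glial markers and 1 of 4 haemocyte markers, Col4a1, were called, with 1 and 3 at an unadjusted p under 0.05. On the deposited scale, which lies lower as a whole in per01, the glial markers summed to 49.27 to 52.17 in per01 and to 58.18 to 71.47 in wild-type large PDF neurons, and the haemocyte markers to 28.22 to 28.64 and to 34.86 to 56.59. Their part in the innexin differences was not tested.

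**Figure D3:**
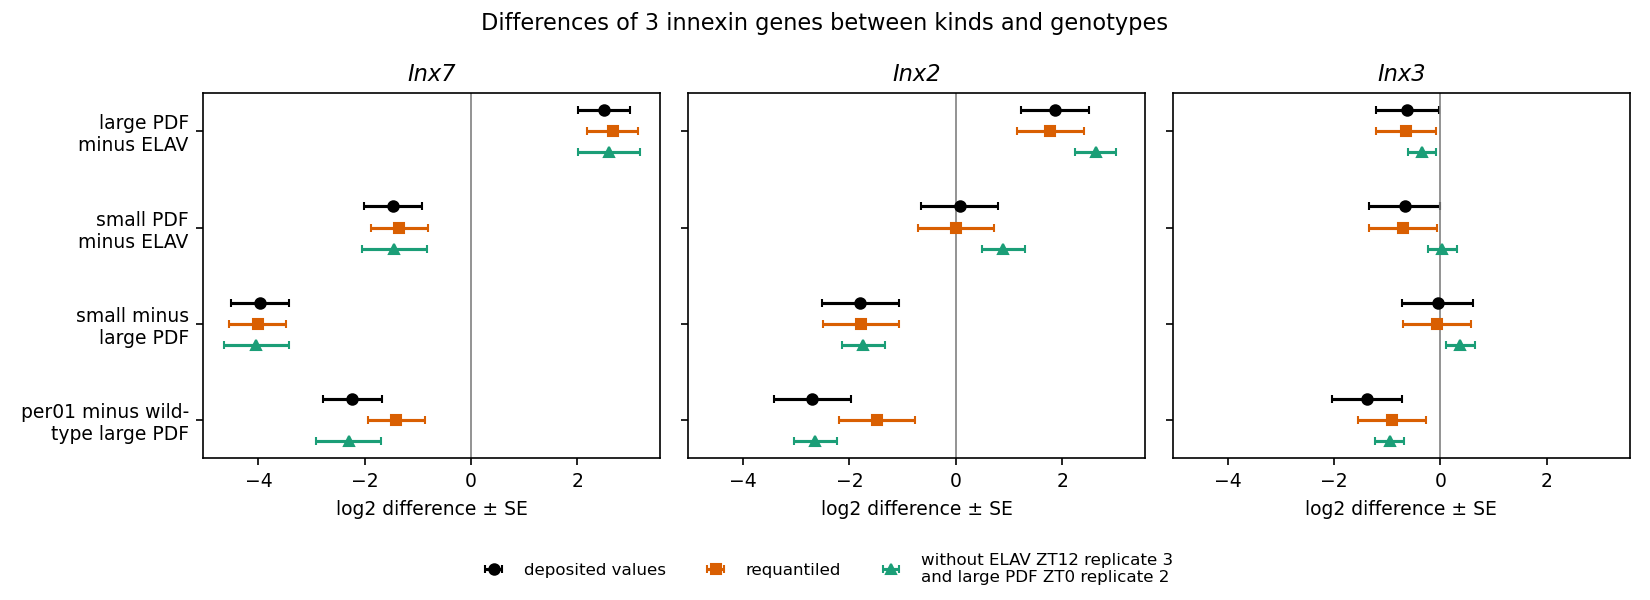
Log2 differences ± SE (x axis) of Inx7, Inx2 and Inx3 in the 4 comparisons of kind and genotype (y axis), for the deposited values (circles), all arrays brought to 1 distribution (squares) and without the 2 arrays that stood apart (triangles). In the small minus large and per01 comparisons only the large PDF array of that pair is compared. The ELAV array enters there only through the shared estimate of spread. The per01 differences of Inx7 and Inx2 shrink to -1.41 and -1.49 after requantiling, and the small minus large difference of Inx7 stays near -3.97.

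No innexin passed a test of the time of day in any kind. In large PDF neurons Inx7 averaged 8.62 ± 0.29 at ZT0 (SD, n = 3), 8.17 at ZT6 (n = 2), 7.96 ± 0.61 at ZT12 (SD, n = 3) and 8.34 at ZT18 (n = 2). Its 4 time groups overlapped, and the F test over them gave an adjusted p of 0.919 for a range of 0.66. Inx2 averaged 6.47 ± 0.34, 5.43, 5.28 ± 1.30 and 5.71 at the same 4 times, a range of 1.19 (adjusted p = 0.808). The F test called 2.02% of all probe sets and none of the 3 innexins, and none of the 3 had an unadjusted p under 0.05.

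The ZT12 minus ZT0 difference in large PDF neurons was -0.66 ± 0.70 for Inx7 (log2, SE; limma, adjusted p = 0.671), -1.19 ± 0.91 for Inx2 (adjusted p = 0.536) and -0.67 ± 0.84 for Inx3 (adjusted p = 0.732), with 2.19% of all probe sets called. The 3 Inx2 values at ZT12 spread from 4.06 to 6.65, and the ZT0 values lay within 6.08 and 6.70. Between ZT18 and ZT6 the differences were 0.18 ± 0.85 for Inx7 (adjusted p = 0.999) and 0.27 ± 1.12 for Inx2 (adjusted p = 0.999), with 0.397% of all probe sets called.

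In small PDF neurons the Inx7 difference between ZT12 and ZT0 was -1.62 ± 0.85 (limma, adjusted p = 0.464), the largest time difference of any tested innexin, with 3.39% of all probe sets called. Its values were 2.36 and 4.67 at ZT12 and 4.36 and 5.90 at ZT0, which overlap. In ELAV neurons, where 0.0240% of all probe sets were called, the ZT12 minus ZT0 differences were 1.02 ± 0.70 for Inx7, 1.03 ± 0.91 for Inx2 and 0.83 ± 0.84 for Inx3 (adjusted p = 0.9997 for each). Without the third ELAV array at ZT12 the Inx2 and Inx3 differences turned to -0.62 ± 0.53 and -0.58 ± 0.58 (adjusted p = 0.9997 for both). In per01 large PDF neurons, with 0.0120% called, the difference was 0.54 ± 0.85 for Inx7 and 0.41 ± 1.12 for Inx2 (adjusted p = 1 for both).

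The time change itself did not pass a test of its difference between kinds or genotypes. Small minus large PDF neurons gave -0.96 ± 1.10 for Inx7 and 0.96 ± 1.44 for Inx2 (limma, adjusted p = 0.826 and 0.880), with 0.697% of all probe sets called. per01 minus wild-type large PDF neurons gave 1.20 ± 1.10 for Inx7 and 1.60 ± 1.44 for Inx2 (limma, adjusted p = 0.866 and 0.861), with 0.144% called. Over these 8 time comparisons none of the 3 tested innexins had an unadjusted p under 0.05. With standard errors of 0.70 to 1.44, time changes of about 1 log2 unit were not detectable in these arrays.

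**Figure D4:**
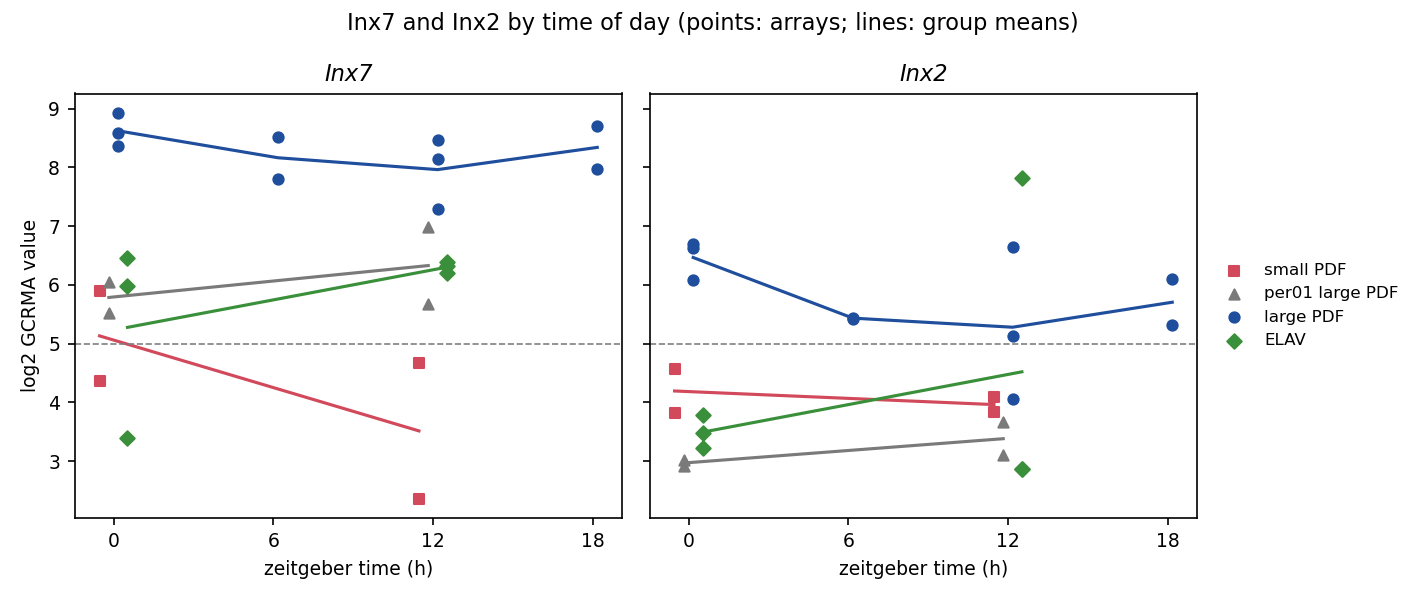
Log2 GCRMA values (y axis) of Inx7 and Inx2 against zeitgeber time in hours (x axis), 1 point per array with lines through group means, for small PDF, per01 large PDF, large PDF and ELAV neurons; points are set slightly apart sideways. Large PDF neurons stay between 7.29 and 8.93 for Inx7 at all 4 times, and the ELAV point for Inx2 at 7.82 is the third array at ZT12.

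Ordered by group mean, Inx7 ran from large PDF at ZT0, ZT18, ZT6 and ZT12 (8.62, 8.34, 8.17 and 7.96) to per01 large PDF at ZT12 (6.33), ELAV at ZT12 (6.30), per01 large PDF at ZT0 (5.79), ELAV at ZT0 (5.28), small PDF at ZT0 (5.13) and small PDF at ZT12 (3.51). Neighbouring groups in this order overlapped except at 2 steps, that from the lowest large PDF group to per01 at ZT12 and that from ELAV at ZT12 to per01 at ZT0. Inx2 ran from large PDF at ZT0 (6.47) to per01 at ZT0 (2.97), with ELAV at ZT12 (4.52 ± 2.86, SD, n = 3) in the middle of the order and the widest of all groups.

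The genes whose group means followed Inx7 most closely were CG9391, MICAL-like and CG10366, with Pearson r of 0.97, 0.95 and 0.93 over the 10 group means. For Inx2 they were Cyp28d2, a cytochrome P450, Adsl, an enzyme of purine synthesis, and CG1440 (r = 0.96, 0.96 and 0.94). For Inx3 they were Slob, a binding partner of the Slowpoke potassium channel, Elys, a nuclear pore protein, and CG5026 (r = 0.98, 0.97 and 0.96), whose group means were also highest in ELAV neurons at ZT12. The Inx3 mean of that group, 4.86 ± 2.43 (SD, n = 3), rests on the third array at 7.67, as the others read 3.47 and 3.44. Likeness to Inx3 was not computed without that array. All r values are descriptions: the points share arrays, their normalization and the low level of per01 arrays, and the genes were picked as the closest of all tested.

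Other components of cell junctions moved in both directions between the kinds. Of 21 listed genes of septate and adherens junctions, 14 were tested. In large PDF against ELAV neurons, where limma called 24.4% of all tested probe sets, 4 were higher and 3 lower. The list median was -0.24, against -0.01 over all tested probe sets. pck, a claudin-like protein of septate junctions, was higher by 2.10 ± 0.41 and kune, another, by 1.11 ± 0.36, while Lac, an immunoglobulin-domain protein of the same junctions, was lower (-3.89 ± 0.51), as was alpha-Cat, the alpha-catenin of adherens junctions (-1.01 ± 0.26; limma, adjusted p of at most 0.0291 for these 4).

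In small PDF against ELAV neurons, where limma called 27.6% of all tested probe sets, 3 of the 14 were higher and 1 lower. These were pck (2.38 ± 0.45), kune (1.81 ± 0.40), Cont, the fly contactin (1.72 ± 0.32), and Lac (-3.57 ± 0.57; limma, adjusted p of at most 0.0023). Both comparisons share the ELAV arrays. Small against large PDF neurons, where 17.1% of all tested probe sets were called, gave 1 higher, cora (0.85 ± 0.27), and 1 lower, Nrx-IV (-0.74 ± 0.24). Both are of septate junctions. Lac, pck, kune and Cont were not called between the PDF kinds, where Inx7 was.

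In per01 against wild-type large PDF neurons none of the 14 junction genes was higher and 5 were lower, with a list median of -0.52, against -0.69 over all tested probe sets, of which 32.0% were called. After requantiling none of 15 tested junction genes was called by limma, with 3 at an unadjusted p under 0.05. On the deposited scale vari, a scaffold protein of septate junctions, fell by 1.93 ± 0.41, Lac fell by 1.79 ± 0.57, pck fell by 1.53 ± 0.45 and Cont fell by 1.37 ± 0.32 (log2, SE).

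Of 13 listed genes of the release machinery of chemical synapses 9 were tested. Limma called 1 of them in large PDF against ELAV neurons, where it called 24.4% of all probe sets, and 2 in small PDF against ELAV neurons, where it called 27.6%. Snap25, a SNARE protein of vesicle fusion, was lower in large PDF than in ELAV neurons (-1.40 ± 0.27; limma, adjusted p = 7.53e-04). In small PDF against ELAV neurons Snap25 (-1.81 ± 0.30) and cpx, the fusion clamp complexin (-0.95 ± 0.24), were lower. Rim, an active zone scaffold, was higher in small than in large PDF neurons (0.81 ± 0.24; limma, adjusted p = 0.026), and Rop, a partner of syntaxin (-1.30 ± 0.37), and nSyb, the neuronal synaptobrevin (-0.79 ± 0.24), were lower in per01 on the deposited scale, where the median of all probe sets was -0.69. After requantiling none of the 9 was called by limma, with 1 at an unadjusted p under 0.05. Neither list held a gene called between ZT12 and ZT0 in any of the 4 kinds by limma, with at most 2 genes of a list at an unadjusted p under 0.05 in a kind.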

How the data were processed

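The authors deposited log2 values per probe set for 24 arrays. The submitters' processing notes name GCRMA and R 2.6, and no source used here says which arrays were processed jointly. Probe sets were named by the platform annotation with symbols updated through gene IDs: of 18769 non-control probe sets 13647 carried 1 symbol, 402 several and 4720 none. No sequences were used.

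Differences were fitted with limma 3.58.1 in R 4.3.3 on those log2 values, with 10 group means (14 residual and 3.62 prior degrees of freedom). Comparisons of kinds and genotypes weigh ZT0 and ZT12 equally. P-values were adjusted by Benjamini and Hochberg within each comparison over the 8318 probe sets at log2 5 or more on at least 2 arrays, and called under 0.05. Fold sizes of Inx2 set values under log2 5 to 5 on both sides of the comparison. Up to 4 called genes of each list, those with the largest differences, are named, and for likeness the 3 genes with the highest r. The script was tested on simulated data. Depth does not apply to arrays. Their small number limits precision, and p-values weigh a difference against the spread of arrays within groups, estimated over all 10 groups. Replicate numbers were not read as pairs: of 96 same-number pairs across groups, 4 had deviations correlated above 0.1 (median r -0.0015). In groups of 2 arrays the deviations mirror each other, so pairs between such groups repeat 1 value for both numbers. The 4 are thus 0.108 and 0.139, each counted for both numbers. The genes and lists were chosen with earlier results of these data known. Alternatives changed the filter, a floor, the scaling, the variance model, the arrays and the replicate block.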

Additional observations from a re-analysis of the deposited data

Results flagged for a closer look

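Within each kind, pooled over times, 4 of 9 tests for a single array far from its fellows found one. A gene was tested in a kind only if its highest value there reached the log2 level of the filter. Only a single array did so for Inx2, Inx3 and ogre in ELAV, Inx3 in large PDF and Inx7 in small PDF neurons. Because this choice favours single high arrays, the count cannot be set against a rate expected by chance. Inx2 read 7.82 on the third ELAV array at ZT12, with a gap to the nearest array of 0.816 of the whole range, above Dixon's critical value for that number of arrays, as were the other gaps given here. Inx3 read 7.67 on the same array (0.714). This was also the array with the highest haemocyte and glial marker sums among ELAV arrays. Inx3 read 5.85 on the second large PDF array at ZT0 (0.558), the array with the highest sums of both marker lists among large PDF arrays. Inx7 read 3.4 on the first ELAV array at ZT0 (0.847), where the haemocyte markers summed to 31.39 and the glial markers to 62.01, within the range of the other ELAV arrays. The cause of these values was not tested.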

How the results depend on the processing

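Of 651 alternative values of Inx7, Inx2 and Inx3, none reversed a called difference, 19 lost a call and 9 gained one, and 623 kept their side of the threshold. For large PDF against ELAV neurons the count of called innexins was 1 in place of 2 without a filter, with a filter at log2 7 (which removes Inx2 and Inx3), with values under log2 5 raised to 5, with only the compared groups in the fit and without all per01 arrays, and ranged from 1 to 2 with 1 array left out; Inx2 was the gene lost. For small PDF against ELAV neurons it was 1 in place of 0 with the filter at log2 7 and with a variance trend, and 0 to 1 with 1 array left out. For small against large PDF neurons it was 2 in place of 1 with only the compared groups in the fit and without both arrays that stood apart, where Inx2 joined. For per01 against wild-type large PDF neurons it was 1 with the filter at log2 7 and with the floor at log2 5 (Inx7 kept, Inx2 at -1.03, adjusted p = 0.115), 0 after requantiling and after median centring, and 3 without both arrays that stood apart, where Inx3 joined (-0.96 ± 0.27, adjusted p = 0.0162). For small against large PDF and for per01, the ELAV array left out is outside the comparison and enters only through the shared spread. The counts of the 8 time comparisons stayed at 0 in all alternatives. The cause of these changes was not tested beyond what each alternative leaves out.

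With the replicate number as a block, the small PDF against ELAV count was 1 in place of 0, since Inx7 passed (-1.46, adjusted p = 0.0363), and it moved no other count; 6 of 24 arrays correlated best with arrays of their own number, so the numbers are not read as pairs. The leave-out of both arrays and of all per01 arrays, and the requantiling of the gene lists, were chosen after seeing the data. Background limits Inx3, ogre, Inx5 and Inx6 most, since nearly all their values lie under log2 5.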
